A study of Mus musculus with 2 samples.

Results

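The 41 genes described here encode the Bcl2 protein family and the rest of the core machinery of apoptosis, from death receptors to the nuclease that cuts DNA. They were chosen by gene symbol and all 41 had a row among the 43346 gene rows of the deposited tables. The RNA was from B6NCrl mouse midbrain at embryonic day 10.5, with males and females pooled, and the labels name no treatment and no mutation. There is 1 group with 2 libraries: replicate 1 was made from 69 embryos and replicate 2 from 51, and the labels number them as biological replicates. No condition can be compared, so the values below are levels, their spread between the libraries, and the isoforms behind them. Levels are in TPM, a share of all transcripts in a library that is corrected for transcript length and so can be compared between genes. A gene was called detected at 1 TPM or more in both libraries.

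Apoptosis by the mitochondrial route is a contest within the Bcl2 family. Pro-survival members bind and hold the pore-forming effectors Bax and Bak, and BH3-only proteins, named for the short helix they share with the rest of the family, release or activate those effectors. The pore lets cytochrome c and other factors out of the mitochondria, cytochrome c assembles Apaf1 and caspase 9 into the apoptosome, and inhibitor of apoptosis proteins restrain the caspases that follow. The death receptor route reaches the same caspases from the cell surface. In the embryonic neural tube this machinery removes progenitors and young neurons, and mouse embryos lacking Apaf1 or caspase 9 are known for overgrown brains.

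Of the 41 genes, 36 were detected, or 87.8%, against 12477 of 21474 protein-coding genes, or 58.1%. At 10 TPM or more in both libraries stood 24 of the 41, and 10 reached 50 TPM, against 38.2% and 15.2% of protein-coding genes. Replicate 1 gave the 41 genes a median of 13.04 TPM, and replicate 2 one of 14.61 TPM. The 41 include the undetected genes. By the mean of the libraries, the median of all 21474 protein-coding genes, detected or not, was 3.735 TPM. The medians of detected protein-coding genes alone were 21.46 TPM (replicate 1) and 19.77 TPM (replicate 2). Of the 36 detected genes, 16 lay above that median in replicate 1 and 18 in replicate 2, so the detected ones were near the middle of detected genes. Levels of the 41 genes spread from 0 to 208.11 TPM, and the spread within each role was wide.

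**Figure D1:**
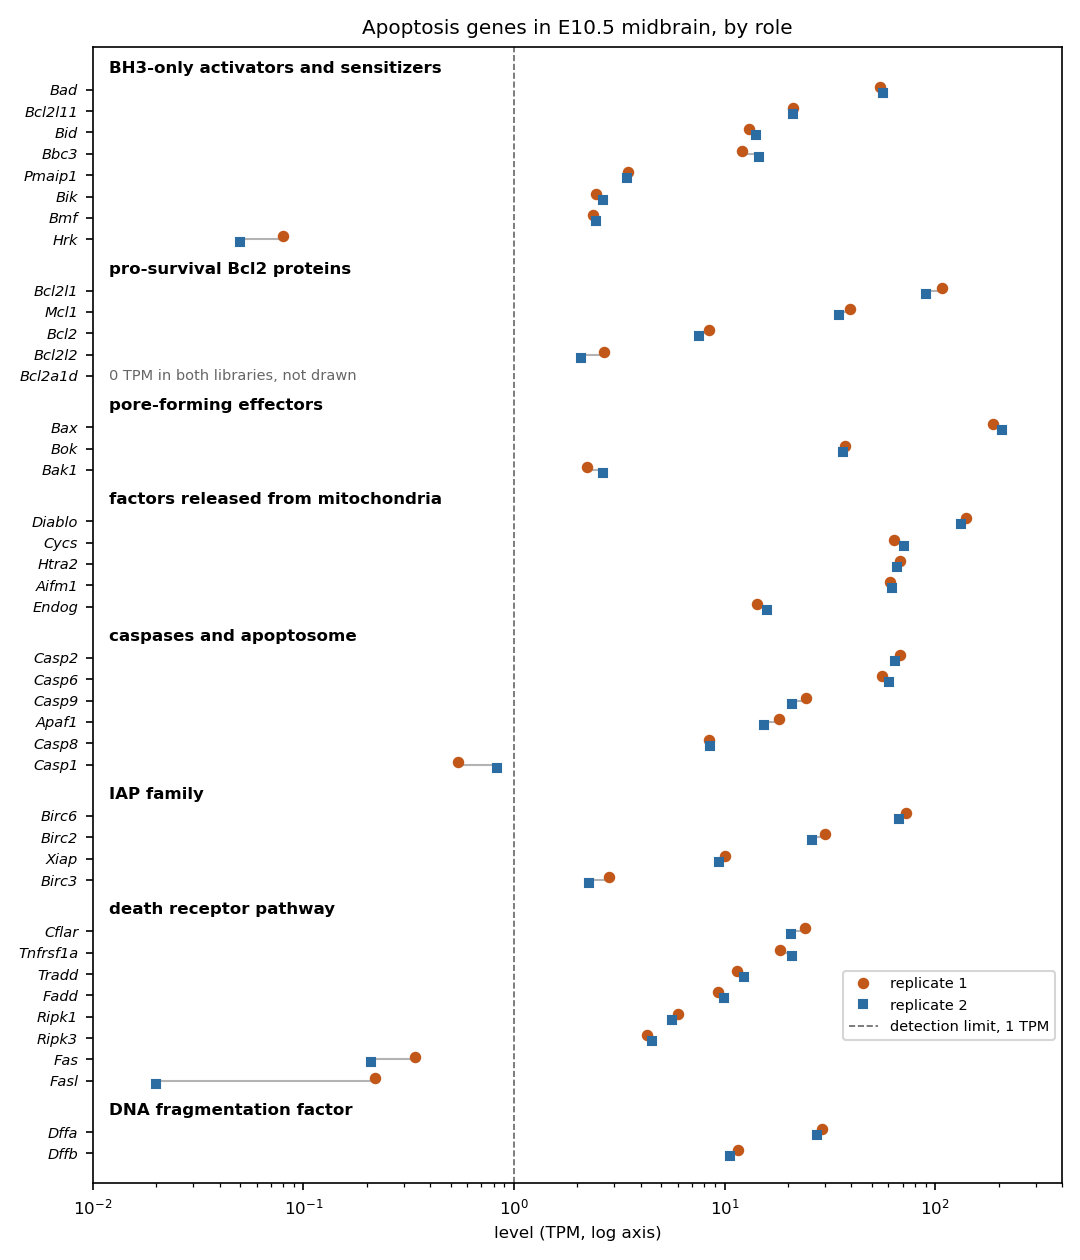
Level of each of the 41 genes in TPM on a log axis, with genes grouped by role; circles are replicate 1, squares replicate 2, and the dashed line is the detection limit of 1 TPM. Bax is highest at 187.32 and 208.11 TPM, Casp1, Fas, Fasl and Hrk lie below the limit in both libraries, and Bcl2a1d, at 0, is not drawn.

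All 5 listed midbrain genes were detected, led by Otx2 and Otx1. These are also expressed in other regions, and no markers of other brain regions were compared. Other cells shared the sample. All 8 erythroid genes were detected, with a summed level of 11370 TPM in replicate 1 and 13307 TPM in replicate 2, mostly from the embryonic globins Hbb-y and Hbb-bh1. All 10 macrophage genes were also detected, led by C1qb and Tyrobp, at a summed 104.64 TPM in replicate 1 and 70.55 TPM in replicate 2. Endothelial genes, led by Egfl7 and Esam, summed to 178.62 and 189.02 TPM, and mesenchymal genes, led by Col3a1 and Col1a1, to 810.28 and 564.08 TPM. In such bulk tissue, fewer cells of a type and less RNA per cell cannot be told apart, and no level below is assigned to a cell type.

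The family is tied together by the BH3 core, a leucine and, a fixed distance on, a small residue followed by aspartate. In BH3-only proteins and effectors this core lies in the groove of a pro-survival partner. The stretches that encode it are shown for the genes whose levels and isoforms the results turn on. Each line gives 36 coding bases from the GENCODE M21 transcripts (GRCm38), with the leucine codon and the pair of small-residue and aspartate codons in capitals.
Bad: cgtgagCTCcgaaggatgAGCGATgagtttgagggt
Bcl2l11: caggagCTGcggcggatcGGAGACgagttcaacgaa
Bid: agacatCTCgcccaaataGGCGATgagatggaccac
Bbc3: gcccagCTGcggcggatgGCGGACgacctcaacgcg
Bmf: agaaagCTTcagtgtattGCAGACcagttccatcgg
Bcl2l1: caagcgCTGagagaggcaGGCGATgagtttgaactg
Mcl1: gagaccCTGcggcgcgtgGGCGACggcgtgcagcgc
Bcl2: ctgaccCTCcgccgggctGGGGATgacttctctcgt
Bax: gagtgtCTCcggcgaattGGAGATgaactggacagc
Bak1: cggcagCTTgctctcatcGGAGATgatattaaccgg

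Read in the coding direction, the small residue is glycine in most of these, serine in Bad and alanine in Bbc3 and Bmf. The lines lie at chr19:6950786-6950821 (Bad, plus strand), chr2:128147144-128147179 (Bcl2l11, plus), chr6:120897286-120897321 (Bid, minus), chr7:16313767-16313802 (Bbc3, plus), chr2:118545097-118545132 (Bmf, minus), chr2:152829694-152829729 (Bcl2l1, minus), chr3:95659430-95659465 (Mcl1, plus), chr1:106712572-106712607 (Bcl2, minus), chr7:45465994-45466029 (Bax, minus) and chr17:27022528-27022563 (Bak1, minus). Each lies within a single coding exon. The search pattern was a leucine codon, 3 codons of any kind, a codon for glycine, alanine or serine, an aspartate codon, 1 codon of any kind and a codon for phenylalanine, leucine, isoleucine, methionine or valine, read on the coding strand only. It occurred in 12.5% of 21817 protein-coding genes of the annotation, so a match alone does not mark a family member. It was not found in the main coding isoforms of Bcl2l2 and Bcl2a1d, which says only that these letters are not there.

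Among the BH3-only genes, which act as the triggers of the pathway, 7 of 8 were detected. Bad, which is held inactive by phosphorylation downstream of growth factors, had 54.73 TPM in replicate 1 and 56.22 TPM in replicate 2. It made up 49.98% and 49.02% of the TPM of all 8 genes, so about as much as the other 7 combined. Bcl2l11 (Bim), a strong activator that binds all pro-survival members, had 21.21 TPM in replicate 1 and 21.17 TPM in replicate 2, and Bad exceeded it 2.62 ± 0.053 times (SD, n = 2). Both libraries placed Bad above Bcl2l11, with a gap far larger than the difference between libraries.

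Bid, which is cleaved by caspase 8 and links the death receptors to the mitochondria, had 13.04 TPM in replicate 1 and 14.07 TPM in replicate 2. Bbc3 (Puma), a p53 target, had 12.16 TPM in replicate 1 and 14.61 TPM in replicate 2. These neighbours were not separated beyond the difference between the libraries, since Bid was the higher of the pair in replicate 1 and Bbc3 in replicate 2. Pmaip1 (Noxa), another p53 target that binds mainly Mcl1, had 3.46 TPM in replicate 1 and 3.45 TPM in replicate 2. Bik had 2.46 and 2.65 TPM and Bmf, which responds to loss of cell attachment, had 2.37 and 2.46 TPM. Hrk, a BH3-only gene known from dying neurons, was the undetected one, with 13 and 9 expected counts and 0.08 and 0.05 TPM.

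Of the 5 pro-survival genes, 4 were detected and 1 stood far above the rest. Bcl2l1, the gene of Bcl-xL, on chromosome 2 from 152780668 to 152831728, had 107.8 TPM in replicate 1 and 90.68 TPM in replicate 2. Mcl1, a short-lived protein whose loss kills neural progenitors in mice, had 39.55 TPM in replicate 1 and 35.09 TPM in replicate 2. Bcl2, on chromosome 1 from 106538178 to 106714274, had 8.41 TPM in replicate 1 and 7.55 TPM in replicate 2. The gene that gives the family its name thus ranked below both: Bcl2l1 exceeded it 12.4 ± 0.57 times and Mcl1 exceeded it 4.68 ± 0.039 times (SD, n = 2 each).

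Bcl2l2 (Bcl-w), which is known from adult neurons, had 2.69 TPM in replicate 1 and 2.08 TPM in replicate 2. Bcl2a1d (A1), a gene of blood cells, was listed at 0 counts in both libraries, where 3 counts would correspond to 0.134 TPM in replicate 1 and 0.117 TPM in replicate 2. Its coding sequence is 98.8% identical to that of Bcl2a1b and 98.6% identical to that of Bcl2a1a, so reads could be divided between these copies. Bcl2a1b had 0.36 and 0.27 TPM and Bcl2a1a 0.12 and 0.05 TPM, so the copies were also under the detection limit.

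The effectors, which form the pore in the outer mitochondrial membrane, were led by Bax. Bax, on chromosome 7 from 45461697 to 45466898, had 187.32 TPM in replicate 1 and 208.11 TPM in replicate 2, a mean of 197.7 ± 14.7 TPM (SD, n = 2). That was the highest level of the 41 genes, and 96.2% of all protein-coding genes were lower. Bok, a relative that can act without Bax and Bak, had 37.21 TPM in replicate 1 and 36.44 TPM in replicate 2. Bak1, the gene of the other main effector Bak, had only 2.22 TPM in replicate 1 and 2.65 TPM in replicate 2.

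Bax thus exceeded Bak1 81.5 ± 4.1 times and Bok exceeded Bak1 15.3 ± 2.1 times (SD, n = 2 each), a gap many times the spread between libraries. Bak1 rested on 131 and 179 expected counts. It lies on chromosome 17 from 27019810 to 27029009, wholly inside the span of Ggnbp1 on the opposite strand, which had 4.81 and 4.57 TPM. Whether strand was kept in these libraries is not known, and the part of Ggnbp1 reads in the Bak1 count was not tested. Bax stood 2.02 ± 0.39 times higher than Bcl2l1, the pro-survival gene of the set with the highest level (SD, n = 2). The ratio was 1.74 in replicate 1 and 2.29 in replicate 2.

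Genes of the factors that leave the mitochondria formed the highest role group, with all 5 detected and a median of 66.9 TPM. Diablo (Smac), which frees caspases from inhibitor of apoptosis proteins, had 139.38 TPM in replicate 1 and 132.88 TPM in replicate 2. Htra2, a serine protease with a similar action, had 67.76 TPM in replicate 1 and 66.11 TPM in replicate 2. Aifm1, a mitochondrial flavoprotein that also serves the respiratory chain, had 61.14 TPM in replicate 1 and 62.44 TPM in replicate 2. Endog, a mitochondrial nuclease, was the low one, at 14.24 and 15.82 TPM. Several of these proteins have daily work in mitochondria, and their levels are not a measure of death signalling.

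Cycs, the gene of cytochrome c, had 63.46 TPM in replicate 1 and 71.24 TPM in replicate 2, but that level is uncertain. Gm10053, annotated as protein coding, is identical to its coding sequence over all 315 bases and was given 248.76 and 293.78 TPM. The processed pseudogene Gm10108 is 99.4% identical and was given 388.8 and 447.12 TPM. Reads from the coding part of Cycs can therefore be assigned to any of the 3, and the share that belongs to Cycs was not tested.

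Caspases are cysteine proteases, and 4 of the 5 caspase genes in the set were detected, as was Apaf1. The codons around the catalytic cysteine are shown for these 4, with the cysteine codon in capitals, because the isoforms below are sorted by whether they carry it.
Casp2: ttcatccaagcaTGTcgtggagatgag
Casp6: atcatccaggccTGTcggggtagccag
Casp8: ttcattcaggctTGCcaaggaagtaac
Casp9: ttcatccaggccTGCggtggtgagcag

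The pattern searched, a glutamine, an alanine and a cysteine codon, then a codon for arginine, glutamine or glycine, then a glycine codon on the coding strand, occurred in 21 genes or 0.0963% of 21817. The Casp8 line lies at chr1:58844607-58844633 on the plus strand. The others cross an intron and run from their first to their last base at chr6:42276764-42279781 (Casp2), chr3:129910690-129912135 (Casp6) and chr4:141807241-141811543 (Casp9), all on the plus strand (GENCODE M21, GRCm38).

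Casp2, the most conserved caspase, which is activated in the PIDDosome after DNA damage or failed division, had 68.41 TPM in replicate 1 and 64.1 TPM in replicate 2. Casp6, an executioner that cleaves lamins, had 55.96 TPM in replicate 1 and 60.34 TPM in replicate 2. The initiator of the mitochondrial route, Casp9, was lower, at 24.4 TPM in replicate 1 and 20.79 TPM in replicate 2. Casp2 exceeded Casp9 2.94 ± 0.20 times (SD, n = 2). Apaf1, the scaffold of the apoptosome, had 18.13 TPM in replicate 1 and 15.41 TPM in replicate 2. Casp8, the initiator of the death receptor route, had 8.45 TPM in replicate 1 and 8.52 TPM in replicate 2. Casp1, the inflammatory caspase that cuts pro-interleukin 1 beta, was undetected at 0.54 and 0.83 TPM, from 22 and 39 counts.

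The inhibitor of apoptosis family, which binds caspases or tags proteins with ubiquitin, was detected for all 4 genes. Birc6, a giant ubiquitin ligase, had 72.86 TPM in replicate 1 and 67.24 TPM in replicate 2. Birc2 (cIAP1), a ubiquitin ligase of the tumour necrosis factor receptor complex, had 30.09 TPM in replicate 1 and 26 TPM in replicate 2. Its close relative Birc3 (cIAP2) had 2.83 and 2.27 TPM, 11.0 ± 0.58 times less than Birc2 (SD, n = 2). The deposited posterior mean of Birc3 was 3.46 and 2.85 TPM, 23.7% above its TPM, which that SD does not cover. Xiap, the only member known to block caspases directly with high affinity, had 10.08 TPM in replicate 1 and 9.39 TPM in replicate 2. Its antagonist Diablo exceeded it 13.99 ± 0.23 times (SD, n = 2), with all isoforms of both genes counted. In isoforms annotated as protein coding the gap was wider. Diablo had 130.7 and 126.3 TPM in these, and Xiap 4.12 and 3.89 TPM.

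In the death receptor pathway the adaptors were detected, while one ligand and receptor pair was not. Fas had 12 and 10 counts, or 0.34 and 0.21 TPM, and its ligand Fasl had 6 counts in replicate 1 and 1 count in replicate 2, or 0.22 and 0.02 TPM. The receptor of tumour necrosis factor, Tnfrsf1a, had 18.33 TPM in replicate 1 and 20.86 TPM in replicate 2. Cflar (FLIP), which holds back caspase 8, had 24.18 TPM in replicate 1 and 20.72 TPM in replicate 2, so it was above Tnfrsf1a in replicate 1 only, and it exceeded Casp8 2.65 ± 0.30 times (SD, n = 2). In isoforms annotated as protein coding the gap was narrower, with 15.4 and 12.99 TPM for Cflar and 8.45 and 8.52 TPM for Casp8. The adaptors Tradd and Fadd had 11.44 and 9.28 TPM in replicate 1 and 12.37 and 9.89 TPM in replicate 2. The kinases Ripk1 and Ripk3, which pass the signal on to inflammation or to necroptosis, had 6.01 and 4.26 TPM in replicate 1 and 5.6 and 4.5 TPM in replicate 2.

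The DNA fragmentation factor is a nuclease bound to its inhibitor, which caspases cut. Dffa, the inhibitor and chaperone, had 29.07 TPM in replicate 1 and 27.53 TPM in replicate 2. Dffb, the nuclease (CAD), had 11.52 TPM in replicate 1 and 10.59 TPM in replicate 2. The inhibitor's RNA exceeded that of the nuclease 2.56 ± 0.054 times (SD, n = 2).

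How far the libraries differed was asked with an exact binomial test on scaled counts, with Benjamini-Hochberg adjustment over 14768 genes. The 36 detected members were the ones tested. Calls were made at 2-fold or more, in either direction, where the adjusted p was also below 0.05. None of the 36 was called, against 2.35% of all genes tested, and none with DESeq2 size factors, against 2.32%. At an unadjusted p below 0.05 there were 20 of 36, or 55.6%, against 57.3% of all genes tested. With the adjusted p alone there were 18 of 36, of which 6 were higher in replicate 1 and 12 in replicate 2, against 53.3% of all genes. The test compares these libraries and covers counting error only, since 1 library stands on each side. Ratios stayed within 1.25-fold for 34 of 36 genes, against 76.5% of all genes tested and 80.1% of the 12756 protein-coding genes tested.

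**Figure D2:**
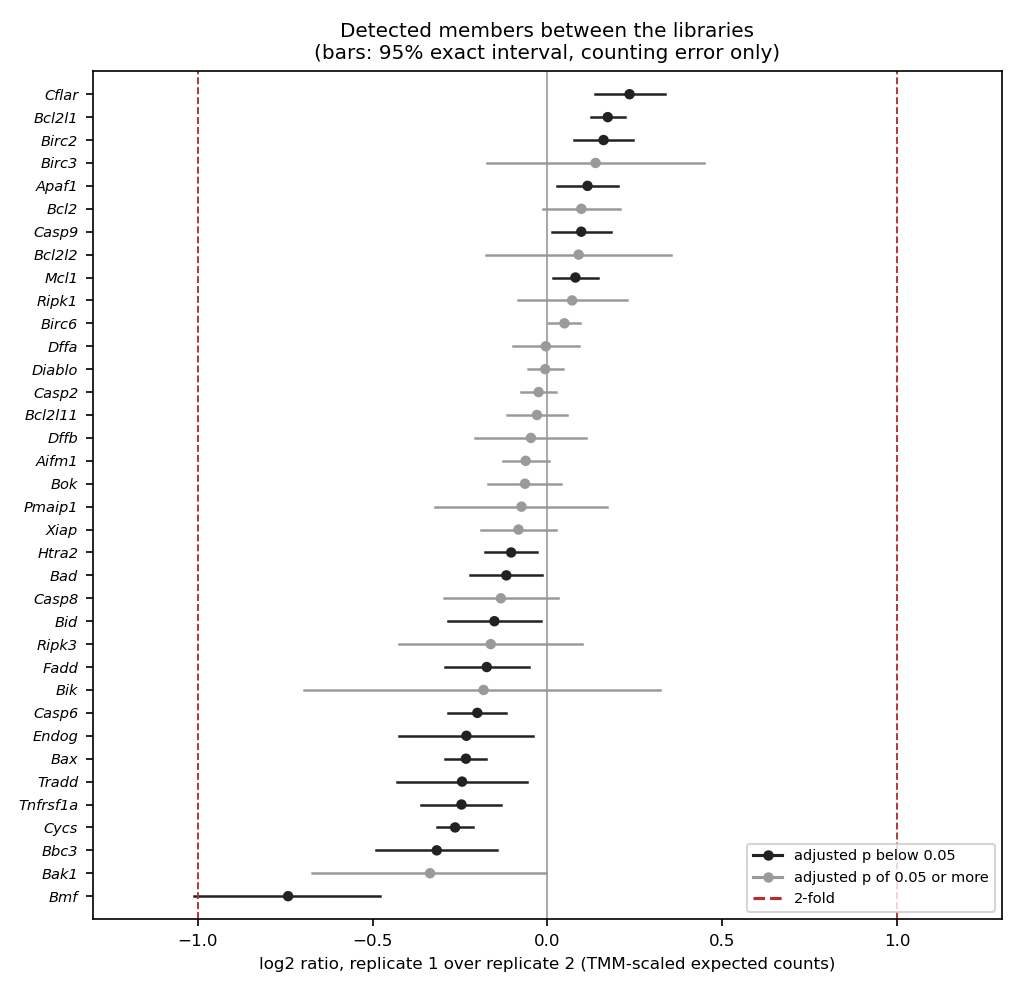
Log2 ratio of replicate 1 over replicate 2 for the 36 detected genes, from TMM-scaled expected counts, with 95% exact intervals that cover counting error only; dark points have an adjusted p below 0.05 and dashed lines mark 2-fold. All points lie between the lines, the highest being Cflar at 0.23 and the lowest Bmf at -0.74.

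The gene with the largest ratio was Bmf, with 185 counts in replicate 1 and 335 in replicate 2. Its log2 ratio was -0.74 with a 95% interval of -1.01 to -0.48 and an adjusted p of 6.297e-08 in the exact binomial test. In TPM the libraries nearly matched, at 2.37 and 2.46. The isoforms behind those values differed: the 4642-base coding isoform Bmf-201 held 52.85% of the TPM in replicate 1 and 84.45% in replicate 2, while short non-coding isoforms with 14.55 and 3.61 counts held most of the rest in replicate 1. Since TPM divides by length, those few reads counted for many molecules, and the deposited posterior mean of the Bmf level was 48.4% above its TPM. The level of Bmf is uncertain to that extent.

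Among the members with smaller ratios, Bax had a log2 ratio of -0.23 (95% interval -0.29 to -0.17) and Bcl2l1 one of 0.17 (0.12 to 0.22). Cycs had one of -0.26 (-0.32 to -0.21) and Bbc3 one of -0.32 (-0.49 to -0.14). Cell type markers shifted between the libraries too. All 7 neuronal genes, led by Tubb3 and Gap43, were higher in replicate 1, with a median TPM ratio of 1.70, and 1 of them, Dcx, was called. Macrophage genes had a median ratio of 1.47 (9 of 10 higher in replicate 1) and mesenchymal genes 1.31 (5 of 7). Progenitor genes, led by Vim and Hes5, had a median ratio of 1.19, and endothelial genes 1.07. Erythroid genes had a median ratio of 0.82, with 8 of 8 lower in replicate 1. These marker ratios are of TPM, without the TMM scaling used for the member ratios. As TMM-scaled log2 ratios the medians were 0.65 (neuronal), 0.53 (macrophage), 0.32 (mesenchymal), 0.17 (progenitor), 0.018 (endothelial) and -0.37 (erythroid). The part of these markers in the small shifts of the apoptosis genes was not tested.

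Isoforms were read from the deposited isoform percent, the share of a gene's TPM given to each transcript. The 41 genes had 202 transcripts in the tables. The most abundant isoform, by the mean of the libraries, was the same in both libraries for 34 of 36 detected genes. The exceptions were Apaf1 and Ripk1, where a pair of isoforms lay close together: Apaf1-202 had 35.45% and Apaf1-204 had 35.4% in replicate 1, against 34.91% and 36.19% in replicate 2. For 5 of the 36, or 13.9%, the most abundant isoform was not annotated as protein coding, against 7.21% of detected protein-coding genes. These were Apaf1, Bak1, Bid, Birc6 and Xiap. The median share of TPM in protein-coding isoforms was 93.0% over the 36 and 97.8% over detected protein-coding genes.

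**Figure D3:**
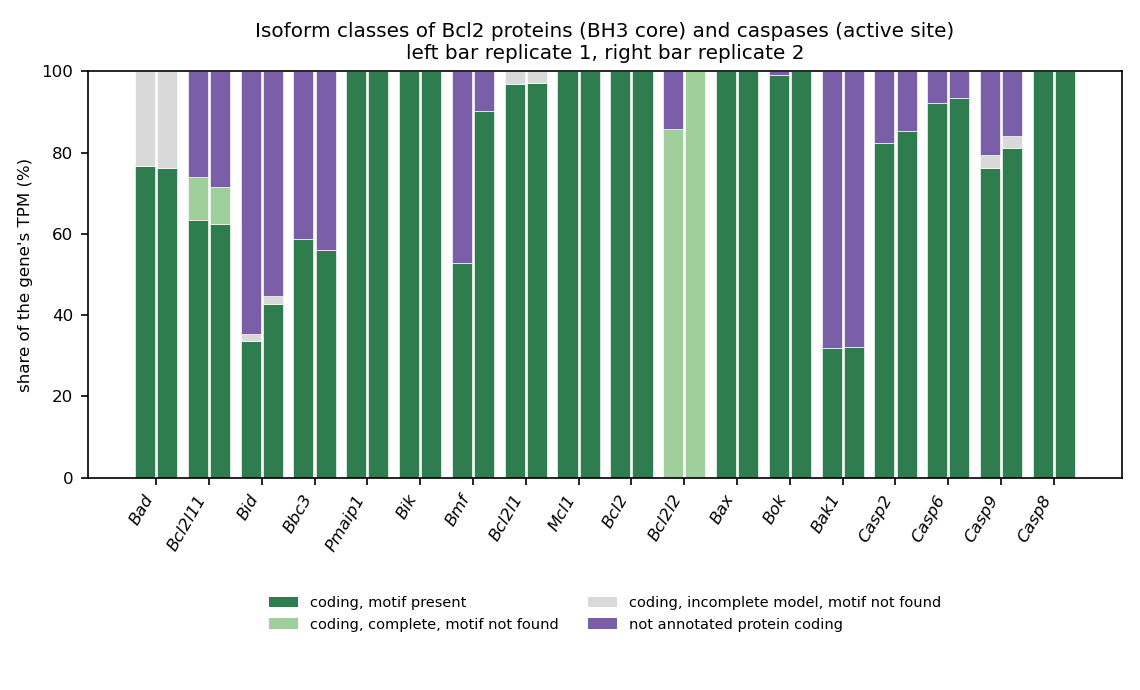
Share of each gene's TPM, in percent, by isoform class for the detected Bcl2 family genes and caspases, with replicate 1 as the left bar and replicate 2 as the right bar of each pair. Bax, Mcl1, Bcl2, Bik, Pmaip1 and Casp8 are entirely coding with the motif present, whereas Bak1 and Bid are mostly in isoforms not annotated as protein coding.

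In Bak1 the leading isoform carried a small extra exon. Bak1-201, annotated for nonsense-mediated decay, the pathway that removes messages with an early stop, held 68.22% of Bak1 TPM in replicate 1 and 67.81% in replicate 2. It has an exon of 20 bases, at chr17:27021663-27021682 on the minus strand, that Bak1-202 lacks. It is shown here with 15 transcript bases on each side and the exon in capitals.
Bak1 exon: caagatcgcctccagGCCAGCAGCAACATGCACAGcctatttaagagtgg

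Because 20 is not a multiple of 3, the exon shifts the reading frame, and the coding sequence ends 90 bases after it. With the exon the coding sequence has 151 codons, against 209 codons in Bak1-202, and both hold the BH3 core shown above. Bak1-202 held 31.78% in replicate 1 and 32.19% in replicate 2. In TPM that left 0.71 and 0.85 TPM for the full-length Bak form, against 187.32 and 208.11 TPM for the single annotated isoform of Bax, which has 192 codons. Inclusion of a small exon of this kind in Bak1 is known from mouse neurons. The counts behind the pair were small, at 83.52 and 113.34 for Bak1-201 and 47.48 and 65.66 for Bak1-202. By the deposited posterior means Bak1-201 held 55.71% and 56.64%, and Bak1-202 held 27.23% and 30.18%. The rest went to Bak1-203 and a transcript without a match in GENCODE M21, which both had 0 TPM. The division between the Bak1 isoforms is uncertain to that extent.

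Bid showed a decay annotation that left the protein untouched. Bid-204, annotated for nonsense-mediated decay, held 63.7% in replicate 1 and 52.5% in replicate 2, and Bid-201 held 33.63% and 42.79%. Both have the same coding sequence of 195 codons. Together they carried 97.3% of Bid TPM in replicate 1 and 95.3% in replicate 2, and they differ only outside the coding part.

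For Bcl2l11 the isoforms differ in whether they hold the BH3 core. The 196-codon form, known as BimEL, held 53.92% in replicate 1 and 50.43% in replicate 2. The 110-codon form, known as BimS, held 9.53% and 11.8%. A form of 91 codons in which the core was not found held 10.47% and 9.08%. Non-coding isoforms took the remaining 26.09% and 28.59%, so forms with the core summed to 63.45% in replicate 1 and 62.33% in replicate 2.

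Of the 4 detected pro-survival genes, Bcl2l1, Bcl2 and Mcl1 were entirely in isoforms annotated as protein coding. Bcl2l2 was so in replicate 2, while an isoform with a retained intron held 14.18% in replicate 1. Bcl2l1 forms of 233 codons, the length of Bcl-xL, held 87.01% in replicate 1 and 85.79% in replicate 2, and forms of 209 codons held 4.0% and 4.72%. Bcl2 was divided between the 236-codon alpha form, with 59.55% and 57.55%, and the 199-codon beta form, with 40.45% and 42.45%, which lacks the membrane anchor at the end of the protein. Mcl1 was nearly all in its 331-codon form, at 97.68% in replicate 1 and 98.65% in replicate 2. Bad had 59.67% and 59.41% in its 162-codon form and 16.94% and 16.88% in a 204-codon form. Bbc3 held 58.79% and 55.99% in its 193-codon form, and an isoform with a retained intron held 41.21% and 44.01%.

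Long and short forms of the inhibitors stood side by side. Dffa held 52.94% in replicate 1 and 53.23% in replicate 2 in its 331-codon form (ICAD-L, which also folds the nuclease) and 47.06% and 46.77% in its 265-codon form (ICAD-S). Cflar held 35.88% and 31.88% in its 481-codon form, which keeps a caspase-like domain, and 27.82% and 30.83% in a 215-codon form without it. The difference between these Cflar forms was in the same direction in both libraries but small, at 8.68 against 6.73 TPM in replicate 1 and 6.6 against 6.39 TPM in replicate 2. Casp9 held 76.16% and 81.0% in its 454-codon form with the catalytic cysteine, and Casp2 held 82.37% and 85.42% in its 452-codon form with it. For Casp8, every isoform with a value held the site.

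Some low coding shares depended on whether molecules or reads were counted. TPM divides reads by length, so a short non-coding isoform with few reads weighs as much as a long coding one with many. Apaf1-204, of 511 bases, held 35.4% and 36.19% of Apaf1 TPM on 77.64 and 77.21 counts, while Apaf1-202, of 6433 bases, had 1195 and 1145 counts. Protein-coding isoforms of Apaf1 thus held 61.3% of TPM in replicate 1 and 63.0% in replicate 2, but 95.9% and 96.3% of the counts. Birc6 gave the widest gap among genes led by a non-coding isoform: 23.2% and 23.0% of its TPM were coding, against 60.04% and 58.89% of its counts. Its 1030-base isoform Birc6-206, with a retained intron, held 48.26% and 48.33% of TPM, and the 15768-base Birc6-202 of 4873 codons held 10.27% and 8.77%. Birc6 transcripts without a match in GENCODE M21 were counted as non-coding though their type is not known. The largest, of 4067 and 2239 bases, held 9.17% and 2.38% of TPM in replicate 1 and 8.74% and 2.8% in replicate 2. The coding shares of Birc6 are therefore minimums.

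**Figure D4:**
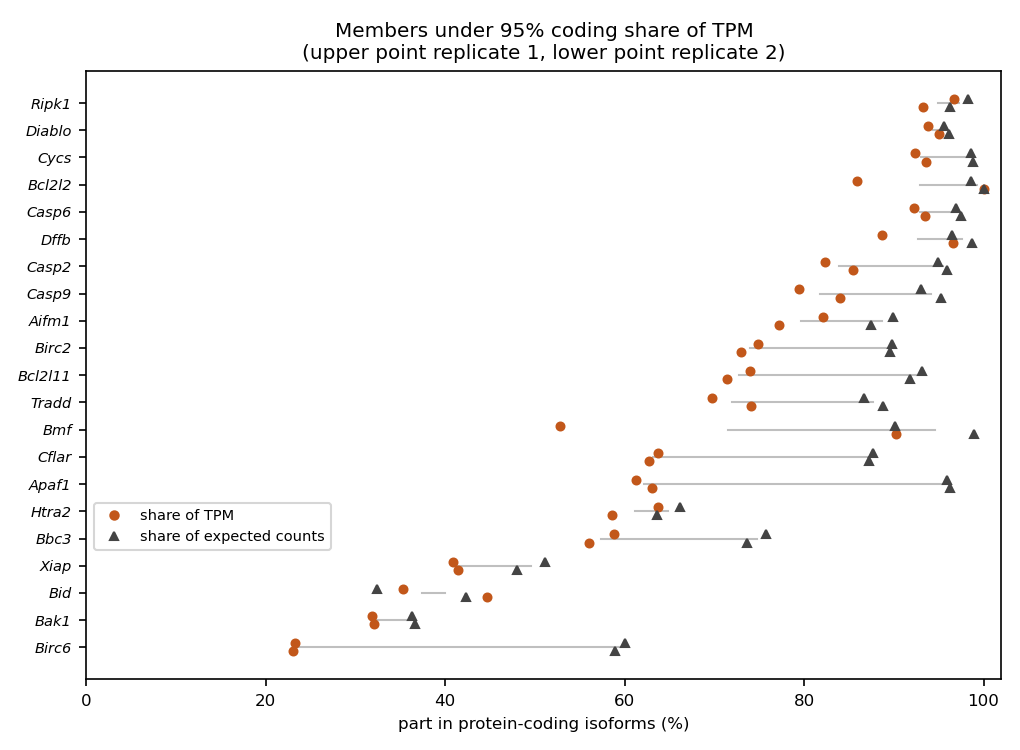
Part of each gene in protein-coding isoforms, in percent, for detected genes whose mean coding share of TPM was under 95%; circles are shares of TPM and triangles shares of expected counts, with replicate 1 above replicate 2. Apaf1 lies at 61.3 and 63.0% of TPM but at 95.9 and 96.3% of counts, whereas Bak1 and Bid stay under 50% by either measure.

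By counts, 3 of the 36 genes had under 50% in coding isoforms, Bak1, Bid and Xiap, against 4 by TPM, which adds Birc6. Among detected protein-coding genes the shares under 50% were 4.53% by counts and 8.42% by TPM. Xiap held 40.9% and 41.4% of TPM and 51.1% and 48.0% of counts in coding isoforms, and its leading isoform was the non-coding Xiap-207 with 34.85% in replicate 1 and 41.7% in replicate 2. Htra2 held 47.0% and 51.93% in its 458-codon form, and Birc2 46.74% and 48.13% in Birc2-204, which shares its coding sequence of 612 codons with Birc2-202 at 28.18% and 24.88%. Ripk1 was split between Ripk1-203, at 52.31% and 45.06%, and Ripk1-201, at 44.37% and 48.19%, which have the same 656 codons.

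Other genes of the pathway, outside the 41, were taken from a list of 40. Of these, 27 were detected, and none of the 27 was called between the libraries by the exact test, with either scaling. Calls over all genes tested were 2.35% with TMM and 2.32% with DESeq2 size factors. The adjusted p alone was met by 4 genes higher and 13 lower in replicate 1. An unadjusted p below 0.05 was met by 18 of 27, against 57.3% of all genes tested. Over all genes tested, 26.4% were higher and 26.9% lower in replicate 1 by the adjusted p. The 8 highest were Bnip3l, Birc5, Pea15a, Parp1, Vdac2, Api5, Vdac1 and Bag1. Bnip3l, a receptor for removal of mitochondria, had 403.53 TPM in replicate 1 and 413.48 TPM in replicate 2, and Birc5 (survivin), an inhibitor of apoptosis family gene needed for chromosome segregation, had 315.4 and 350.62 TPM. The ligands Tnf and Tnfsf10, named after their values were seen, stood at or under 0.07 TPM in both libraries. The tissue thus held the receptor Tnfrsf1a and its adaptors with little RNA of its ligand Tnf.

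In all, 19 of the 41 genes overlap another annotated gene, 14 of them on the opposite strand. Besides Bak1, examples with neighbours on the opposite strand are Bid (Bcl2l13, 31.63 and 31.03 TPM), Bad (Gpr137, 23.85 and 20.79 TPM), Endog (Spout1, 74.84 and 75.68 TPM), Htra2 (Aup1, 85.35 and 85.59 TPM, and Loxl3, 7.34 and 6.64 TPM), Diablo (AC157931.1, 1.72 and 1.34 TPM) and Ripk1 (Serpinb6a, 26.05 and 23.78 TPM). The part of such reads in these levels was not tested.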

How the data were processed

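Gene and transcript tables of 2 libraries were used, with total expected counts of 47128426 in replicate 1 and 52189568 in replicate 2. Per the labels' protocols, libraries started from 10 ng of RNA of over 200 nt. The labels name total RNA-seq but link the manual of a kit that primes on poly(A) tails, so capture and strand are taken as unknown. Per the file headers, the tables are on mm10 with GENCODE M4, and the sources used here give no aligner or quantifier. The deposited expected counts need not be whole and were rounded for tests. The deposited TPM and FPKM are scaled by effective length and library total. The deposited isoform percent is a transcript's share of its gene's TPM. The deposited posterior means and credible bounds of TPM are a signal in TPM units. Spike-in (97) and tRNA (26248) rows stayed out of tests.

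Names, positions, transcript types and coding sequences came from GENCODE M21 (GRCm38), with 42462 of 43346 gene identifiers matched. Of 202 transcripts of the set, 181 have the same length there, and 4 without a match were counted as non-coding. The members, role groups and lists were chosen with earlier results of these data known. All 41 members are reported. The 8 highest of 40 other pathway genes are named (some others are not reported here), as are isoforms of members of at least 5 TPM whose main isoform held under 70%, was not protein coding or differed between libraries, and of genes with known protein forms. Bak1 and Bmf isoforms were added after their values were seen.

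The library test was two-sided and binomial, exact, on counts scaled by TMM (edgeR 4.0.16), with 0.5 added to counts in ratios. It covered 14768 genes whose mean was 1 TPM or more. Simulated Poisson counts were made for replicate 1 over replicate 2 over those 14768 genes. Calls were given for 96.5% of 200 genes set 3-fold apart, and for 0% of 14568 others. Such counts hold only the counting error that the test assumes. The 0% is therefore not the rate of false calls between real libraries. PCR copies are not independent molecules, so p-values, intervals and the floor of 3 counts cover counting error only. Near-identical copies were sought with BLAST among M21 transcripts at 95% identity over 50% of the coding sequence. Alternatives were other minimums, folds and filters, FPKM, posterior means, DESeq2 1.42.0 size factors and each library alone. Shares of counts were added after seeing the data. Software was R 4.3.3 and Python 3.11.15 with scipy 1.17.1.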

Additional observations from a re-analysis of the deposited data

How the results depend on the processing

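The number of detected genes was 36 with a minimum of 2 TPM, with FPKM, with posterior means and in either library alone, and 37 at 0.5 TPM. No gene of the set was called between the libraries with DESeq2 size factors, against 2.32% of all genes tested, or with TPM ratios, against 2.63%. None was called without a filter, against 2.19%, or at a mean of at least 5 TPM, against 0.925%. Only 29 to 41 genes of the set were tested, so 0 calls do not set it apart from other genes. At 1.5-fold 1 of 36 was called (Bmf), against 7.61% of all genes. With the adjusted p alone 18 of 36 were called, against 53.3% of all genes. By construction these looser rules cannot give fewer calls, but they do not fix the number. The role groups whose median, with undetected genes included, lay above that of detected protein-coding genes numbered 2 in all 4 alternatives. The number of genes led by a non-coding isoform was 4 to 5 with 1 library left out and 5 with posterior means. The median coding share was 92.3% to 94.3% with 1 library left out, 90.8% with posterior means and 97.4% as a share of expected counts, a choice made after seeing the data that gives long isoforms their full number of reads. Under posterior means 33 of 41 gene levels moved by less than the spread between libraries; the changes of detected genes ran from -1.8% to 48.4%. Depth limits Bik, Bak1, Bmf, Birc3, Bcl2l2 and the undetected genes most, and their isoform shares are the least certain. No paired analysis was possible because there is a single group.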
